A study of Homo sapiens with 6 samples.

Results

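The X-linked cancer-testis antigen genes were 50 of the 61487 gene rows in the deposited count table. They were taken by name, whatever their counts, and comprised 10 MAGE-A, 5 MAGE-B, 3 MAGE-C, 3 CTAG, 3 GAGE, 6 PAGE, 5 SSX, 5 XAGE, 4 SPANX, 2 CT45 and 2 CSAG genes together with CT83 and SAGE1. All 50 matched a row and lie on the X chromosome. RNA was sequenced from K562, a human chronic myeloid leukaemia line with erythroid features. Of the 6 libraries, 3 came from the azacitidine-sensitive line and 3 from azacitidine-resistant K562, a population made by keeping the line under rising azacitidine for months. Both groups grew in the same serum-supplemented RPMI medium. Whether drug was present at harvest, and whether the resistant population is 1 clone or several, was not given in the sources used here. The libraries carry the label of biological replicates, but nothing says that the cultures were kept apart, and p-values therefore refer to the spread among these 6 libraries.

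Cancer-testis antigens are proteins that healthy tissue makes mainly in male germ cells and placenta and that tumours often produce out of place, where T cells can recognise their peptides. Most X-linked families are tandem arrays of recently duplicated genes, and in most somatic cells their CpG-bearing promoters are methylated and silent. Azacitidine is a cytidine analogue that traps DNA methyltransferases, and drugs of this class are known to switch on several of these genes in leukaemia cells.

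Total counts were 33007642 to 43006918 per library, and a level of 0 has an upper limit of 3 counts, or 0.0698 to 0.0909 CPM (counts scaled to library size). This limit uses library totals alone, while other CPM use TMM-scaled totals. Mitochondrial genes took 8.99% of counts in resistant replicate 3 and 13.5% to 19.0% in the others. Among genes with 1 to 20 counts, 57.4% to 62.3% had an even count, and whether both reads of a pair were counted was not given in the sources used here. Intervals of count ratios cover counting error only and are too narrow if reads of a pair count separately. Folds given as at least a value set 3 counts against the group with 0 and leave out counting error in the other group. The labels call the cells myeloblasts. Of 8 myeloblast markers, CTSG had 0 counts in every library and MPO 2 to 4, while CD33 was 101 to 112 CPM in sensitive libraries and 9.85 to 12.1 CPM in resistant libraries. The summed level of the 8 was 109 to 117 CPM against 15.2 to 16.4 CPM, most of it from CD33. Of the 4 tested, CD33 and PRTN3 fell, while AZU1, at 3.87 ± 1.65 and 2.40 ± 0.452 CPM, and CEBPA, at 2.01 ± 0.608 and 2.30 ± 0.484 CPM, overlapped between groups and were not called. PRTN3 passed a filter on low counts through the sensitive libraries alone, so a difference was a condition of its being tested. The 10 erythroid markers summed to 746 to 1640 CPM against 930 to 1577 CPM, and none of the 9 tested was called. In bulk RNA, fewer cells that express a gene and less RNA per cell cannot be told apart. Of 9 male germ cell markers, PIWIL1 and PRM1 had 0 counts throughout, and 6 others had 0 in the sensitive libraries and at most 8 counts in a resistant library. The remaining one, SYCP3, was not called, and the 9 summed to 2.89 to 4.83 CPM against 3.80 to 9.29 CPM.

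Promoters from RefSeq (GRCh38.p14), covering 250 bases before to 50 after each start, were found for 43 of the 50 genes, 58 promoters in all. The following are examples among the genes with a clear rise or loss. The promoters of GAGE10 and MAGEA3, which were not called, were added beside them. GAGE copies that share a promoter differed in their calls, while MAGEA3 and MAGEA6, which also share a promoter, were both not called. Each runs 5′ to 3′ on the gene's strand, and capitals mark CG dinucleotides, the sites that DNA methylation uses.
GAGE2A, chrX:49589246-49589545, plus strand, the same 300 bases as for GAGE1, GAGE12J and GAGE12H: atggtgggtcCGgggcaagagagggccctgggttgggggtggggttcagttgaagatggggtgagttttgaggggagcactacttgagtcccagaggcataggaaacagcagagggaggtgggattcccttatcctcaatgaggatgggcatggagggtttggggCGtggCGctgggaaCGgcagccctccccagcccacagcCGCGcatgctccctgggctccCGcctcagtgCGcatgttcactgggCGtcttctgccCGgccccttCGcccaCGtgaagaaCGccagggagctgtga
GAGE10, chrX:49303396-49303695, plus strand: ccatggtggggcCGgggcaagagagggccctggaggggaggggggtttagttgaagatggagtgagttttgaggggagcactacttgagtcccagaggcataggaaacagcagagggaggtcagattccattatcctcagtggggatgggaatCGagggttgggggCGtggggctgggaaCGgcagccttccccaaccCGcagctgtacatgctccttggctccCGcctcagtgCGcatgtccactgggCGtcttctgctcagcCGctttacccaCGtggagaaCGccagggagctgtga
MAGEA3, chrX:152698544-152698843, plus strand, the same 300 bases as for MAGEA6: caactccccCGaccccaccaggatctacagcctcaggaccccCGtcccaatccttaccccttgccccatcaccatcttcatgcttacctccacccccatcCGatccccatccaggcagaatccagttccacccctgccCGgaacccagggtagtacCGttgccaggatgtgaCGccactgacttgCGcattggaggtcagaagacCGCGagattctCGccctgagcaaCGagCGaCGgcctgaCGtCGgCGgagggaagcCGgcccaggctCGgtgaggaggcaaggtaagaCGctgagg
MAGEA11, chrX:149711810-149712109, plus strand: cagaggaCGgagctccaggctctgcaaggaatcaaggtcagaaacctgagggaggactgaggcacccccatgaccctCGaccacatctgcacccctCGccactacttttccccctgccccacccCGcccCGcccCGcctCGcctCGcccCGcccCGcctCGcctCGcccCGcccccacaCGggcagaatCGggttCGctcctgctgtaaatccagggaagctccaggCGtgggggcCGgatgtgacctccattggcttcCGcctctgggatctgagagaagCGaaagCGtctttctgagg
MAGEB2, chrX:30215313-30215612, plus strand: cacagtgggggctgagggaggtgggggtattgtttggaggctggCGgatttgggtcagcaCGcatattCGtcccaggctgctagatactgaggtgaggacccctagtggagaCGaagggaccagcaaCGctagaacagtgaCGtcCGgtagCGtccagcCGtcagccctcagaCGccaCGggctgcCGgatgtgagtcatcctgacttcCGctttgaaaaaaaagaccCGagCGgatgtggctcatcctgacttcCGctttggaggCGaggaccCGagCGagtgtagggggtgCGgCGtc
PAGE5, chrX:55220096-55220395, plus strand: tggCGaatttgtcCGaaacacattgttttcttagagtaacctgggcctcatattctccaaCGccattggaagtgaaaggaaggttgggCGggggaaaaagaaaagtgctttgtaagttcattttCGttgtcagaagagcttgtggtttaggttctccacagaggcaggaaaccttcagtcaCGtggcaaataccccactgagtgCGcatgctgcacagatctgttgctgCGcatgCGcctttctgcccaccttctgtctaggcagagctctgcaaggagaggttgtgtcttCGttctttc
CT83, chrX:116462927-116463226, minus strand: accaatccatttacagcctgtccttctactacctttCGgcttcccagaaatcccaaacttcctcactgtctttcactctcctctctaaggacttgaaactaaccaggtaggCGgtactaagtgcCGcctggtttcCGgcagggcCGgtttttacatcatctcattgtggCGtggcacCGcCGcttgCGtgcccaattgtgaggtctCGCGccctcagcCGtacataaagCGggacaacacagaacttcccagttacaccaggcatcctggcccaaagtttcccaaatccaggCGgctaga

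The number of CG dinucleotides in these windows was 13 for GAGE2A, 11 for GAGE10, 19 for MAGEA3, 21 for MAGEA11 and for MAGEB2, 10 for PAGE5 and 14 for CT83. Over the 58 promoters the median was 12, with a range of 1 to 21, and over the 35116 promoters of the same length in the table it was 14, with quartiles of 4 and 28. By outcome, the medians were 13 for 15 promoters of genes called higher in resistant cells, 14 for 4 of genes called lower, 13 for 15 of tested genes not called and 9 for 24 of untested genes. The medians of genes that rose and of tested genes not called were the same, and that of genes that fell lay 1 above them. The ETS core CCGGAA, on either strand, was found in 5 of 58 (8.62%) against 17.2% of all promoters, the GC box GGGCGG in 14 of 58 (24.1%) against 45.0%, and TATAAA in 0 of 58 against 11.5%. Duplicated genes with the same promoter, and several starts of 1 gene, count separately in these medians and shares. MAGEA4 gave 5 of the 15 promoters of genes called higher. MAGEB1 gave 2 of the 4 of genes called lower, with 1 and 18 CG dinucleotides.

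Of the 50 genes, 5 had 0 counts in all 6 libraries (PAGE3, SSX4, XAGE2, SPANXA1 and SPANXC), 15 had counts too low to be tested, and 30 were tested. In resistant cells 13 of the 30 rose, 3 fell and 14 were not called at an adjusted p below 0.05. Across all 20891 genes tested, 9.83% were called higher and 13.1% lower. Resistant and sensitive libraries did not overlap for 14 of the 30 genes with the resistant libraries higher and for 7 with them lower, against 18.7% and 21.4% of all genes tested. The median log2 fold change of the 30 was 0.81, and that of all genes 0.03. Of the 13 that rose, 9 passed the filter on low counts through the resistant libraries alone, so for them a difference was a condition of being tested. The other 4 (MAGEB2, MAGEC1, GAGE12J and CT45A1) passed in both groups. With no filter, 45 genes were tested and 13 were called higher and 3 lower. With at least 50 counts required in 3 libraries, 19 were tested and 7 were called higher. The other genes of the X chromosome set the local background: of 651 tested, 10.9% were higher and 20.3% lower.

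**Figure D1:**
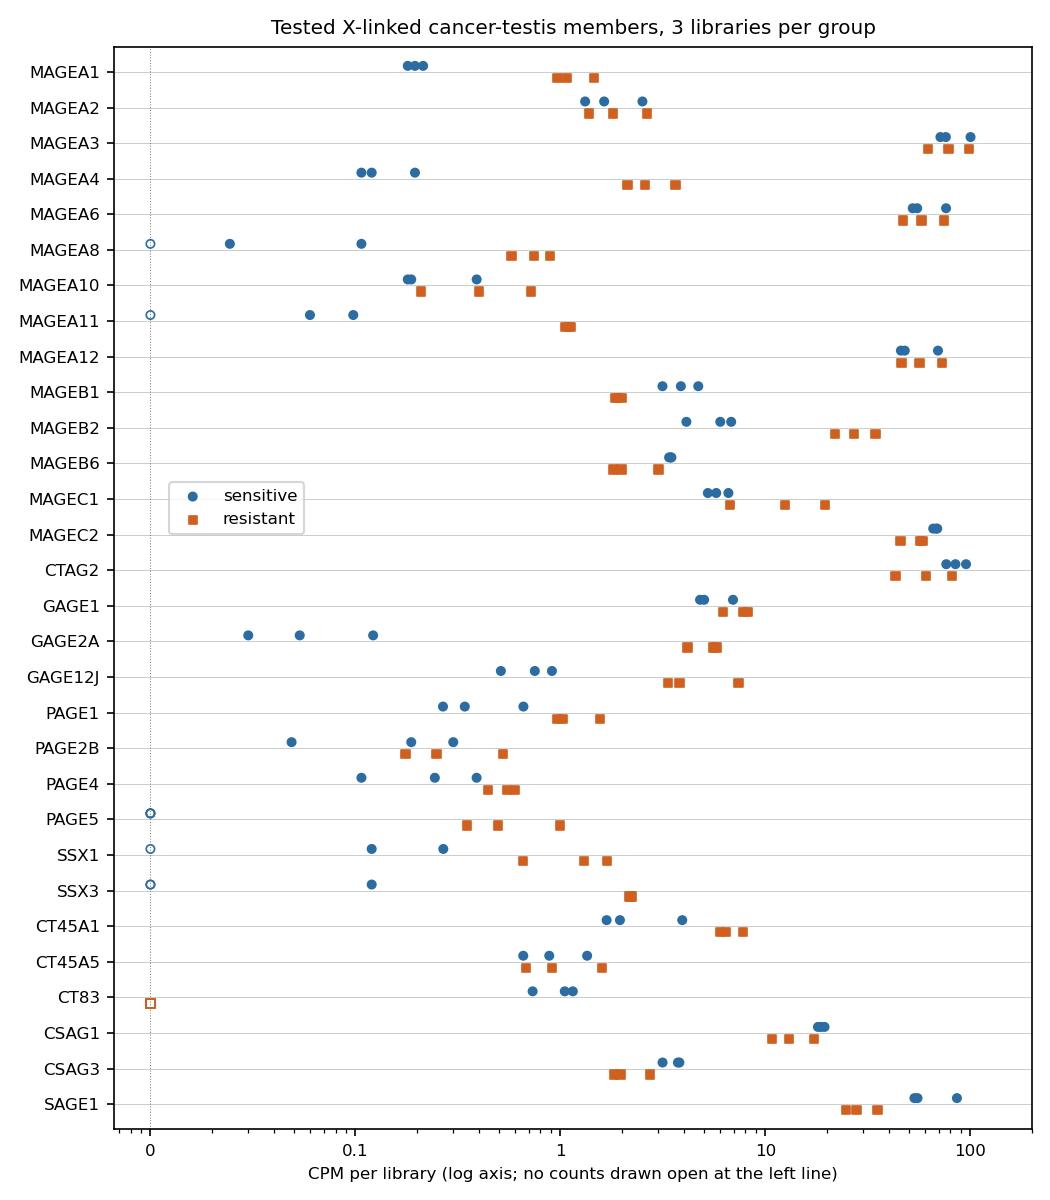
Level of each of the 30 tested genes in each library, in CPM on a log axis, with circles for the 3 sensitive and squares for the 3 resistant libraries and open symbols at the left line for 0 counts. MAGEA3, MAGEA6, MAGEA12, MAGEC2, CTAG2 and SAGE1 were at 24.8 CPM or more in every library, while the genes that rose began at 6.81 CPM or less in every sensitive library.

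Most of the genes that rose stayed low. Summed over the 50 genes, the sensitive libraries had 472 ± 71.3 CPM and the resistant 444 ± 85.1 CPM (SD, n = 3), a difference smaller than the spread. Scaled by exon length, the leading gene in sensitive cells was CTAG2 at 86.0 CPM per kb of exon, followed by MAGEA3 at 46.2, MAGEC2 at 34.0, MAGEA6 at 32.9, MAGEA12 at 28.0 and SAGE1 at 22.0 CPM per kb. In resistant cells the order by level per kb was CTAG2 at 62.2, MAGEA3 at 44.7, MAGEA6 at 32.0, MAGEA12 at 30.1, MAGEC2 at 27.0 and MAGEB2 at 17.3 CPM per kb. Neighbours in these orders were compared only as values. Of the 13 genes that rose, MAGEB2 alone was among the leading 6.

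The MAGE-A genes lie at Xq28 and encode proteins with the MAGE homology domain, which binds and directs E3 ubiquitin ligases. Of 9 tested, 4 rose, 0 fell and 5 were not called. MAGEA4 (ENSG00000147381, chrX:151912509-151925170, plus strand, GENCODE 29 on GRCh38) was at 0.195, 0.120 and 0.107 CPM in sensitive libraries and 2.13, 2.59 and 3.64 CPM in resistant libraries. Every resistant library was above every sensitive one, and the log2 fold change was 4.26 ± 0.45 (SE), adjusted p = 1.35e-04. MAGEA4-AS1 overlaps it on the opposite strand, and whether counting used strand is not given. MAGEA11, known as a coregulator of the androgen receptor, had 4, 2 and 0 counts in the sensitive libraries, and 1.05, 1.13 and 1.10 CPM in the resistant ones (38, 45 and 42 counts). The log2 fold change was 4.27 ± 0.70, adjusted p = 0.00206, and 5.08 without sensitive replicate 1.

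MAGEA1, the founding member of the family, rose from 0.195, 0.180 and 0.214 CPM to 1.08, 1.46 and 0.969 CPM, with a log2 fold change of 2.55 ± 0.45 and adjusted p = 0.00293. MAGEA8 had 1, 0 and 4 counts in sensitive libraries and 27, 23 and 34 in resistant libraries. The ratio of its summed counts was 16.4 (exact 95% binomial interval 6.77 to 51.9), adjusted p = 0.00574. Count ratios and their intervals here are relative to TMM-scaled totals. The log2 fold change of MAGEA8 was 3.95, and 5.47 without sensitive replicate 3. All 4 genes rose from at most 8 counts in any sensitive library. The 3 abundant paralogs MAGEA3, MAGEA6 and MAGEA12 differed by less than the spread. MAGEA3 was at 71.5, 76.0 and 100.3 CPM in sensitive libraries and 62.4, 78.4 and 98.8 CPM in resistant libraries, a log2 fold change of -0.05 ± 0.20 (adjusted p = 0.890). MAGEA6 gave -0.04 ± 0.21 (adjusted p = 0.917) and MAGEA12 0.10 ± 0.22 (adjusted p = 0.775). Within each group, replicate 3 was the highest of the 3 libraries for each of these paralogs. Summed, the 3 paralogs were at 198 ± 41.4 and 198 ± 45.3 CPM. MAGEA2, at 1.82 ± 0.619 and 1.94 ± 0.638 CPM, and MAGEA10, at 0.253 ± 0.119 and 0.443 ± 0.257 CPM, were not called, and MAGEA9 had 2 and 4 counts over the 3 libraries of a group. MAGEA2 shares 89.4% of its 100-base transcript windows with its copy MAGEA2B, and both together were at 2.93 ± 0.905 and 3.23 ± 0.627 CPM. MAGEA9 shares 89.7% with MAGEA9B, and both together had 8, 6 and 4 counts and then 4, 28 and 19, which overlapped through resistant replicate 1 and were not tested.

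**Figure D2:**
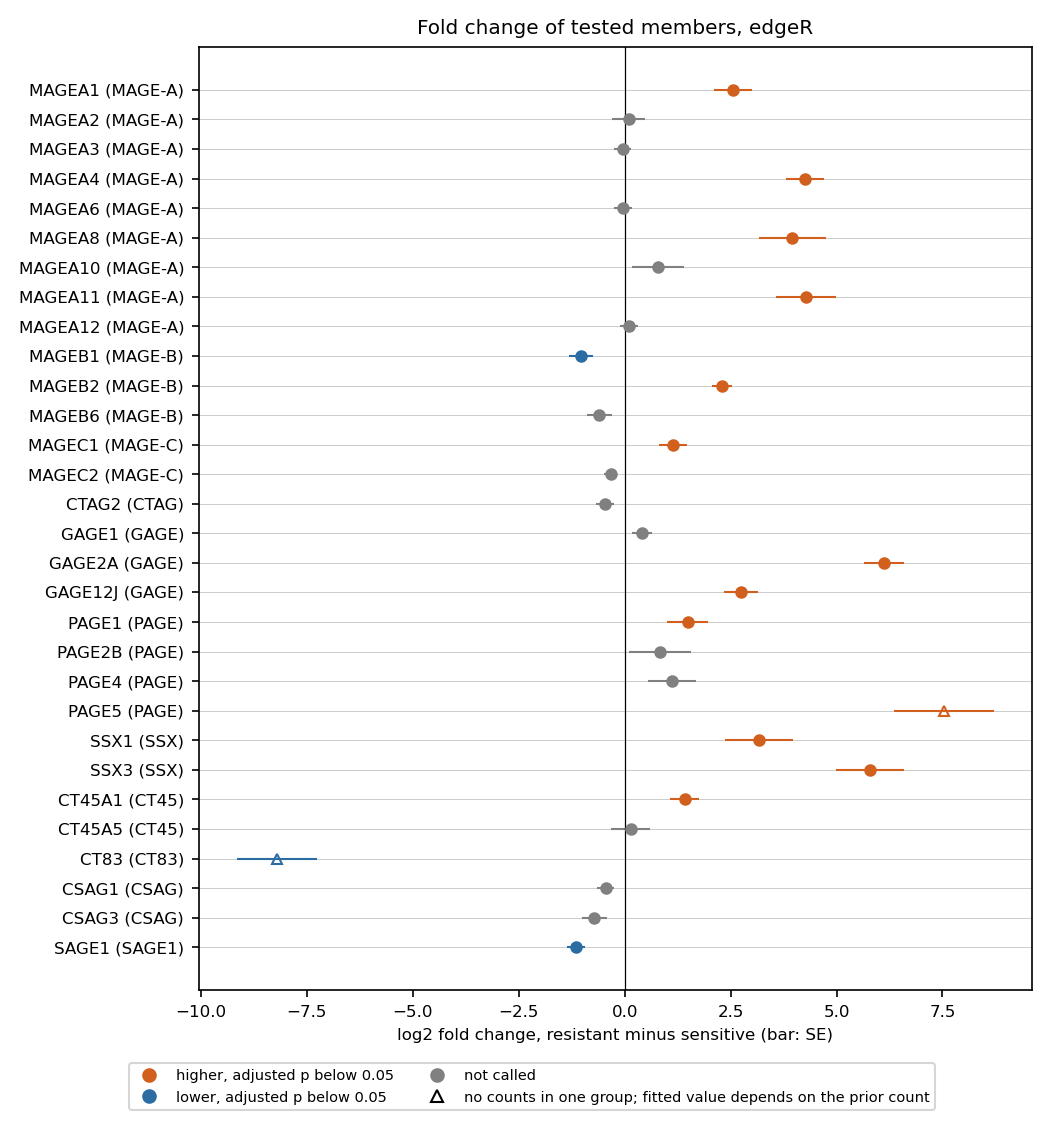
Log2 fold change of each of the 30 tested genes, resistant minus sensitive, from edgeR, with bars for the SE and colours for the call. Genes of 1 family lie on both sides of the threshold, as with MAGEA4 (4.26) and MAGEA3 (-0.05); triangles mark PAGE5 and CT83, which had no counts in 1 group, so that their fitted values depend on the prior count.

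The MAGE-B genes lie on the short arm. Of 3 tested, 1 rose, 1 fell and 1 was not called. MAGEB2 (ENSG00000099399, chrX:30215560-30220089, plus strand) was at 6.03, 6.81 and 4.12 CPM in sensitive libraries and 21.9, 27.1 and 34.4 CPM in resistant libraries, without overlap. This gave a log2 fold change of 2.30 ± 0.25, adjusted p = 1.61e-04, and its summed counts went from 628 to 3184, the largest gain in counts among the 50 genes. MAGEB1, which starts about 23.6 kb from the end of MAGEB2, moved the other way, from 3.15, 3.87 and 4.71 CPM to 1.91, 1.98 and 1.86 CPM. Its log2 fold change was -1.03 ± 0.28, adjusted p = 0.0250. The adjusted p rose past 0.05 on removal of sensitive replicate 2 (0.0740) or 3 (0.0556) or of resistant replicate 1 (0.0642) or 2 (0.0933), and with library totals alone (0.0533). MAGEB1 overlaps MAGEB4 on the same strand, and MAGEB4 had 2 and 0 counts. MAGEB6 was at 3.44 ± 0.0453 and 2.27 ± 0.650 CPM and was not called (adjusted p = 0.176), although its libraries did not overlap. MAGEB3 had 6 and 5 counts.

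Of the MAGE-C genes, which lie at Xq27, MAGEC1 rose and MAGEC2 was not called. MAGEC1 (CT7), an antigen often found in myeloma, was at 5.76, 6.60 and 5.24 CPM in sensitive libraries and 19.5, 12.5 and 6.73 CPM in resistant libraries. Resistant replicate 3 lay just above the highest sensitive library. The log2 fold change of 1.14 ± 0.34 (adjusted p = 0.0365) was 0.72 without resistant replicate 1 (adjusted p = 0.134), and the call was also lost without sensitive replicate 1 (0.114), 2 (0.0774) or 3 (0.0950), without resistant replicate 2 (0.0918) and with limma-voom (0.0789). MAGEC2, a partner of the ligase TRIM28, was at 69.0, 65.9 and 68.0 CPM and then 45.6, 56.9 and 58.5 CPM. These did not overlap, but the log2 fold change of -0.33 ± 0.15 missed the threshold (adjusted p = 0.138), and passed it without both libraries numbered 3 (-0.41, adjusted p = 0.0150). MAGEC3 had 5 counts, all in sensitive replicate 2, and then 0.

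The CTAG genes encode NY-ESO-1 (CTAG1A and CTAG1B) and its relative LAGE-1 (CTAG2). CTAG2 was at 76.3, 84.7 and 95.3 CPM in sensitive libraries and 43.2, 60.8 and 81.4 CPM in resistant libraries, which overlapped through resistant replicate 3. Its log2 fold change was -0.47 ± 0.22 (adjusted p = 0.160), and -0.74 (adjusted p = 0.0159) without that library. NY-ESO-1 itself was barely read: CTAG1A had 26 and 14 counts and CTAG1B 1 and 5. Of the 100-base windows of CTAG1A transcripts, 85.3% are found in another gene too. Summed, both copies had 27 and 19 counts.

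GAGE genes encode small, disordered nuclear proteins from a tandem array at Xp11.23. Of 3 tested, 2 rose and 1 was not called. GAGE2A (ENSG00000189064, chrX:49589529-49596827, plus strand) had 0.122, 0.0300 and 0.0535 CPM in sensitive libraries and 4.17, 5.55 and 5.79 CPM in resistant libraries. In counts this was 8 against 593, a ratio of 72.5 (exact 95% binomial interval 36.6 to 169), and the adjusted p was 1.64e-05. Its log2 fold change was 6.12 ± 0.47, and 6.80 without sensitive replicate 1. GAGE12J was at 0.513, 0.750 and 0.910 CPM and then 3.35, 3.82 and 7.39 CPM, a log2 fold change of 2.74 ± 0.41 (adjusted p = 0.00116). GAGE1 overlaps GAGE2A on the same strand in GENCODE 29 and went from 5.03, 4.80 and 6.96 CPM to 6.22, 8.19 and 7.83 CPM, which overlapped (log2 fold change 0.41 ± 0.24, adjusted p = 0.252).

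The GAGE copies are nearly the same in sequence, so a row need not hold the reads of its own gene. Of the 100-base windows of GAGE2A transcripts 53.4% were also in another gene, of GAGE12J 77.4% and of GAGE1 11.3%. Among rows outside the 50, GAGE12H shared 76.6% of its windows and went down, from 1.07, 0.931 and 0.722 CPM to 0.194, 0.352 and 0.105 CPM (log2 fold change -2.05 ± 0.54, adjusted p = 0.0216). On removal of sensitive replicate 1 (0.0913) or 2 (0.0648) or of resistant replicate 1 (0.0611), the adjusted p of GAGE12H no longer passed. GAGE10, the most abundant row, with 19.4% of windows shared, was at 17.5, 16.2 and 29.6 CPM and then 14.4, 15.7 and 29.5 CPM (log2 fold change -0.09, adjusted p = 0.873). The promoter printed above for GAGE2A is the same in 8 GAGE genes, among them GAGE2A and GAGE12J, which rose, GAGE1, which was not called, and GAGE12H, which fell. The GAGE10 promoter differs from it in 34 of 303 aligned columns. Summed over all 13 GAGE rows, the level was 29.2 ± 8.85 and 38.4 ± 11.96 CPM, 1.32-fold. GAGE2A and GAGE12J rose as single rows, while the means of the family total differed by slightly more than the sensitive SD and less than the resistant SD. In replicate order the total was 24.9, 23.3 and 39.4 CPM and then 28.9, 34.6 and 51.9 CPM, higher for each replicate number. The total was not tested.

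**Figure D3:**
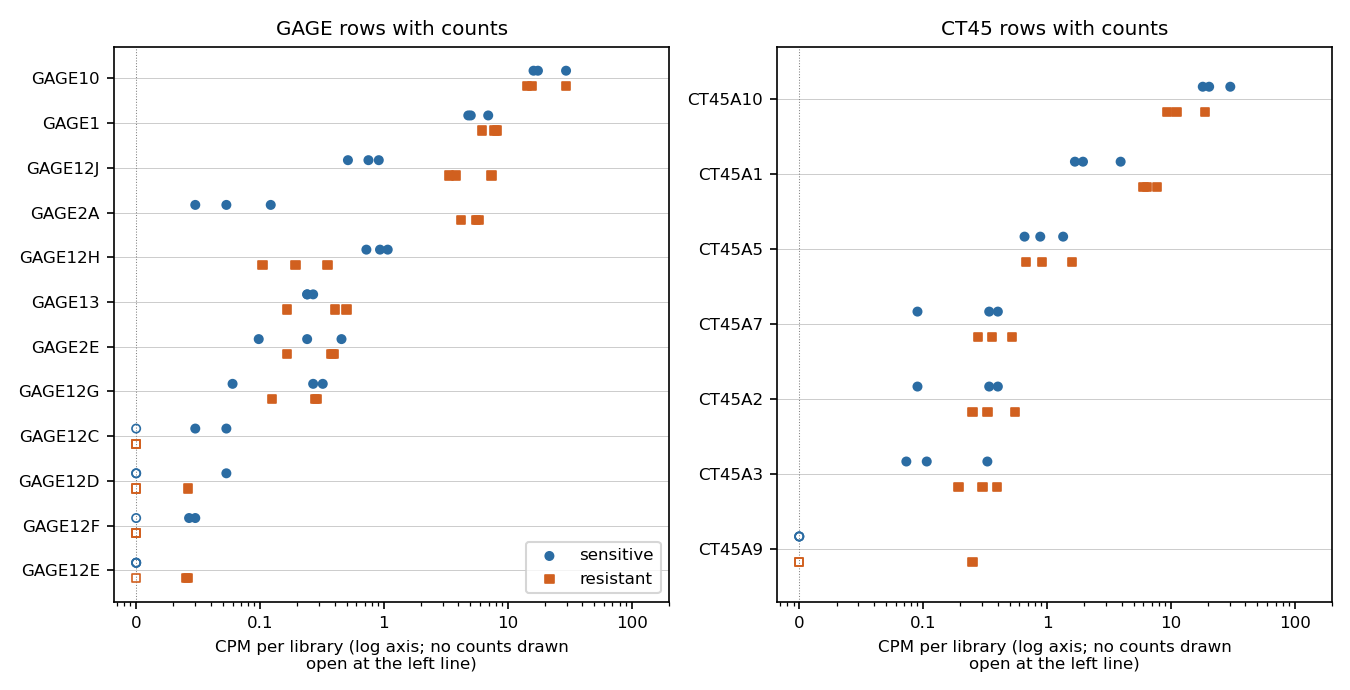
CPM per library, on a log axis, of every GAGE row (left) and CT45 row (right) that had counts, circles for sensitive and squares for resistant libraries, open symbols for 0 counts. GAGE2A and GAGE12J moved up and GAGE12H down while GAGE10, at 14.4 to 29.6 CPM, did not separate; CT45A1 moved up while CT45A10 lay lower in its group means.

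PAGE genes are relatives of GAGE, named for prostate and placenta. Of 4 tested, 2 rose and 2 were not called. PAGE5 (ENSG00000158639, chrX:55220355-55224108, plus strand) had 0 counts in every sensitive library and 18, 14 and 38 counts in the resistant ones. That is at least 22.8-fold higher, computed against 3 counts over the sensitive group, and the adjusted p was 0.00311. PAGE1 was at 0.342, 0.660 and 0.268 CPM and then 1.02, 1.56 and 0.969 CPM (log2 fold change 1.49 ± 0.48, adjusted p = 0.0492). This call was lost without sensitive replicate 1 (adjusted p = 0.174) or 3 (0.116) and without resistant replicate 1 (0.0733) or 2 (0.199). PAGE4, which did not overlap between groups, was at 0.247 ± 0.142 and 0.532 ± 0.0817 CPM (adjusted p = 0.191), PAGE2B had 19 and 36 counts (adjusted p = 0.448), and PAGE2 had 2 and 7.

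SSX proteins are transcriptional repressors whose genes are the fusion partners in synovial sarcoma. Both tested genes rose. SSX3 (ENSG00000165584, chrX:48346428-48356707, minus strand) had 0, 4 and 0 counts in sensitive libraries and 80, 86 and 85 in resistant libraries, or 2.21, 2.16 and 2.23 CPM. The ratio of summed counts was 61.4 (exact 95% binomial interval 23.7 to 227), adjusted p = 8.08e-04. The log2 fold change of 5.79 ± 0.81 was 5.16 without sensitive replicate 1 and 9.40 without sensitive replicate 2, where the sensitive group has 0 counts and the value depends on the prior count. SSX1 had 11, 4 and 0 counts and then 47, 67 and 25, a log2 fold change of 3.17 ± 0.81 (adjusted p = 0.0195). That value was 4.29 without sensitive replicate 1 and 2.58 without sensitive replicate 3, and the call was lost without sensitive replicate 2 (adjusted p = 0.0675) or resistant replicate 2 (0.0831). SSX2 had 2 and 10 counts and SSX5 0 and 2. All windows of SSX2 and SSX4 are shared with their copies, and SSX2 with SSX2B had 2 and 17 counts.

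No XAGE or SPANX gene was tested. XAGE1A had 11 and 8 counts and XAGE1B 5 and 16, 16 and 24 in sum. Of their transcript windows, 100% for XAGE1A and 76.3% for XAGE1B are also in another gene. XAGE3 had 0 and 4 counts and XAGE5 0 and 10, the latter 3.26-fold higher against 3 counts over the sensitive group and not tested. The resistant libraries had 0, 4 and 6 counts of XAGE5, so the groups overlapped. With no filter, its adjusted p in edgeR was 0.149. The 10 SPANX rows, copies included, which encode proteins of the sperm nucleus, held 4 counts in all, in sensitive replicate 1, from SPANXB1 and SPANXD with 2 each.

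CT45 genes form an array at Xq26.3. CT45A1 (ENSG00000268940, chrX:135713453-135723539, plus strand) went from 1.95, 1.68 and 3.93 CPM to 6.03, 6.43 and 7.75 CPM, a log2 fold change of 1.42 ± 0.34 (adjusted p = 0.0144). Removing sensitive replicate 1 (0.0730) or 2 (0.0621), or resistant replicate 2 (0.0513), took its adjusted p past the threshold. CT45A5 was at 0.964 ± 0.353 and 1.06 ± 0.478 CPM and was not called. CT45A1 shares 73.7% of its windows with other genes. CT45A10, the most abundant row and not among the 50, was at 20.4, 18.1 and 30.2 CPM and then 9.26, 11.1 and 19.0 CPM (log2 fold change -0.80 ± 0.29, adjusted p = 0.0737). It passed the threshold without resistant replicate 3 (-1.19, adjusted p = 0.00604), without both libraries numbered 3 (-0.93, adjusted p = 1.93e-04), with a replicate block (-0.84, adjusted p = 0.00416), with no filter (-0.82, adjusted p = 0.00160) and with the DESeq2 Wald test (-0.79, adjusted p = 0.0477). Over all 9 CT45 rows the level was 27.1 ± 7.71 and 22.1 ± 6.78 CPM, a difference smaller than the spread within groups. In replicate order this total was 23.8, 21.6 and 35.9 CPM and then 17.1, 19.3 and 29.8 CPM, lower for each replicate number. It was not tested.

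SAGE1 lies beside the CT45 array and fell. It was at 53.4, 55.3 and 86.1 CPM in sensitive libraries and 24.8, 27.8 and 35.2 CPM in resistant libraries, with no overlap (log2 fold change -1.15 ± 0.22, adjusted p = 0.00472). Its promoter window and that of CT45A10 face away from each other and overlap by 229 bases. CT83 (KK-LC-1, ENSG00000204019, chrX:116461682-116463003, minus strand), an antigen known from lung and gastric cancer, had 30, 35 and 43 counts in the sensitive libraries and 0 in every resistant library. That is at least 36.8-fold lower, computed against 3 counts over the resistant group, adjusted p = 6.92e-04. CT83 passed the filter on low counts through the sensitive libraries alone, so for it too a difference was a condition of being tested. CSAG1 was at 18.1, 18.7 and 19.4 CPM and then 10.8, 13.1 and 17.3 CPM, without overlap but not called (log2 fold change -0.45 ± 0.20, adjusted p = 0.133). It was called without resistant replicate 3 (-0.67, adjusted p = 0.0178). CSAG3 gave -0.71 ± 0.29 (adjusted p = 0.102), with 87.5% of its windows shared.

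Several relatives outside the 50 were lower in the same resistant cells. Of 42 further rows of these families, 13 had 0 counts and 14 were tested, of which 0 rose and 4 fell in edgeR, as against 0 and 5 at an unadjusted p below 0.05 and with DESeq2. Their median log2 fold change was -0.01. Of all genes tested, 9.83% were higher and 13.1% lower. MAGEB16 was at 47.1, 46.3 and 51.2 CPM in sensitive libraries and 0, 0.201 and 0.157 CPM in resistant libraries, a log2 fold change of -8.59 ± 0.43 (adjusted p = 1.80e-06). MAGEB17 had 46, 18 and 21 counts and then 0 in each resistant library, at least 28.97-fold lower against 3 counts over the group (adjusted p = 0.00174). MAGEB10 was at 3.20 ± 0.531 and 0.701 ± 0.200 CPM (log2 fold change -2.18 ± 0.36, adjusted p = 0.00188). GAGE12H is the other. MAGEB16, MAGEB17 and GAGE12H passed the filter on low counts through the sensitive libraries alone, so for them a difference was a condition of being tested. MAGEB10 passed in both groups. Within MAGE-B, counting these relatives, MAGEB2 was higher while MAGEB1, MAGEB10, MAGEB16 and MAGEB17 were lower.

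Most of the genes nearest to the called members were not called. Of the 20 nearest tested neighbours, 1 was higher, 3 were lower and 16 were not called, and their median log2 fold change was -0.01. Of all X chromosome genes tested, 10.9% were higher and 20.3% lower. IL1RAPL1 (log2 fold change -3.03, adjusted p = 0.0517), PPP1R3F (1.11, adjusted p = 0.0520) and ZNF275 (0.85, adjusted p = 0.054) narrowly missed the threshold. Distances ran from 0.2 kb for SLC6A14 beside CT83 to 6002.6 kb for FMR1 beside MAGEC1. Within 1 Mb of CT83, 4 genes were tested and 3 were lower. All 4 passed the filter on low counts through the sensitive libraries alone, so for them too a difference was a condition of being tested. Within the same distance of SAGE1, 5 of 20 tested genes were lower and 1 higher, and of MAGEA1, 7 of 32 were higher and 3 lower. SLC6A14, an amino acid transporter gene whose 3′ end lies 0.2 kb from that of CT83, had 80 counts over the sensitive libraries and 2 over the resistant ones, a ratio of 0.0245 (exact 95% binomial interval 0.00291 to 0.0913). Its log2 fold change was -5.11 ± 0.96 (adjusted p = 0.00411), and -4.52 without sensitive replicate 3 and -7.74 without resistant replicate 2. SLC6A14P1, a pseudogene 206.8 kb away, had 100 and 0 counts, at least 34.1-fold lower against 3 counts over the resistant group, and the long noncoding RNA BX119904.2 had 2193 and 35. The fourth, EEF1GP5, had 39 and 18 counts and was not called. GK (glycerol kinase), 433.3 kb from MAGEB2 and 401.3 kb from MAGEB1, was lower, at 19.7 ± 1.93 and 8.69 ± 1.03 CPM (adjusted p = 0.00119). USP27X-DT, 180.7 to 547.3 kb from PAGE1, GAGE2A and GAGE12J, was higher, at 0.941 ± 0.143 and 2.27 ± 0.237 CPM (adjusted p = 0.0194). Its adjusted p did not pass on removal of sensitive replicate 1 (0.0695) or 2 (0.0641) or of resistant replicate 2 (0.0796). The part of the neighbours' change in that of CT83 was not tested.

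**Figure D4:**
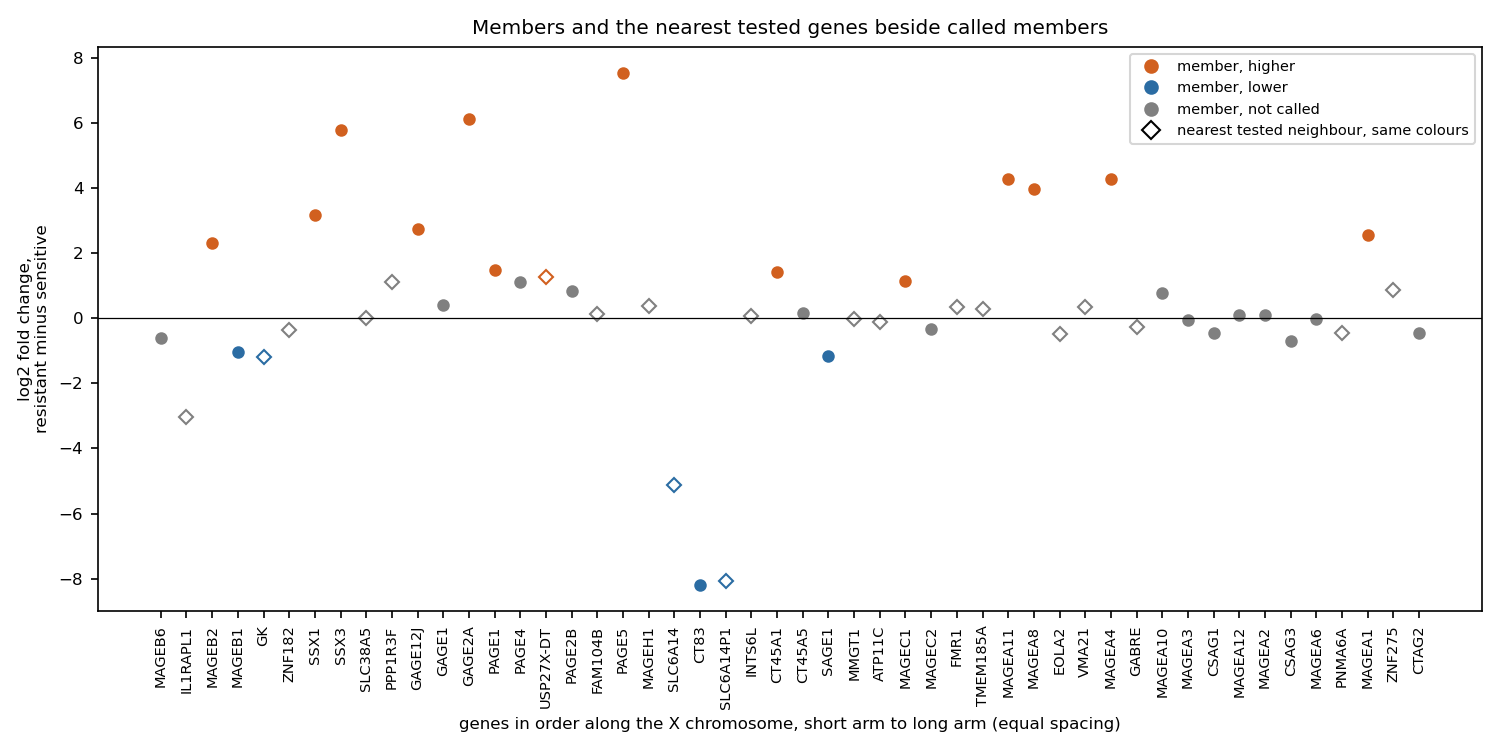
Log2 fold change, resistant minus sensitive, of the 30 tested genes (filled) and of the nearest tested gene on either side of each called one (open diamonds), in order along the X chromosome at equal spacing. Family copies and other X-linked testis genes were passed over in choosing neighbours. Higher, lower and uncalled genes alternate, and CT83 lies between SLC6A14 (-5.11) and SLC6A14P1, both lower; the values of PAGE5, CT83 and SLC6A14P1 depend on the prior count because 1 group had no counts.

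Several genes share a promoter region with an oppositely oriented neighbour. MAGEA12 (log2 fold change 0.10) overlaps head to head with CSAG1 (-0.45), and MAGEA2 (0.09) with CSAG3 (-0.71). MAGEA3, itself not called, overlaps by 166 bases with the divergent transcript MAGEA3-DT, which was lower (log2 fold change -1.18 ± 0.27, adjusted p = 0.0114) and was picked out after its value was seen. The matching transcript of MAGEA6, MAGEA6-DT, gave -0.46 ± 0.30 (adjusted p = 0.306).

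Of 19 regulators of promoter methylation and repression, all tested, 4 rose and 1 fell, beside 9.83% higher and 13.1% lower of all genes tested. DNMT1, the maintenance methyltransferase that azacitidine traps, was at 223 ± 5.77 and 244 ± 15.9 CPM and was not called (adjusted p = 0.595), although every resistant library was above every sensitive one. UHRF1, which brings DNMT1 to replicated DNA, was at 81.9, 62.2 and 77.4 CPM and then 172, 147 and 179 CPM (log2 fold change 1.17 ± 0.17, adjusted p = 9.20e-04). SIN3A, a corepressor scaffold, was at 39.3 ± 5.67 and 88.6 ± 10.7 CPM (adjusted p = 8.73e-04). ETS1, an ETS transcription factor, fell from 11.6, 14.3 and 13.5 CPM to 1.47, 1.36 and 3.12 CPM (log2 fold change -2.73 ± 0.33, adjusted p = 3.38e-04). CTCFL (BORIS), a germ cell paralog of CTCF studied as an activator of cancer-testis genes, was at 182 ± 23.4 and 146 ± 7.71 CPM and was not called (adjusted p = 0.188). Every resistant library of CTCFL was below every sensitive one. It was called lower without both libraries numbered 3 (log2 fold change -0.38, adjusted p = 0.0177) and in no other alternative. The remaining calls, of TET1 and TET3 (log2 fold changes 0.55 and 0.73), were near the threshold. For TET1, adjusted p was 0.0926 to 0.222 without any 1 library other than resistant replicate 3. For TET3 it was 0.0795 to 0.0985 without sensitive replicate 1 or 3 or resistant replicate 1 or 2.

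Of 10 tested ubiquitin ligases and related partners that MAGE proteins are known to bind, 1 rose and 3 fell. Over all genes tested, 9.83% were higher and 13.1% lower. TRIM28 (KAP1), a partner of MAGE-A and MAGE-C proteins, was at 264 ± 14.3 and 370 ± 7.88 CPM (log2 fold change 0.49 ± 0.16, adjusted p = 0.0495). Without any 1 library its adjusted p was 0.0507 to 0.218. LNX1 fell from 13.6, 14.05 and 13.2 CPM to 1.66, 1.28 and 1.60 CPM (log2 fold change -3.17 ± 0.22, adjusted p = 9.28e-06). NSMCE1 was at 40.0 ± 9.12 and 18.0 ± 2.91 CPM (adjusted p = 0.00303). TRIM8 was at 20.1 ± 0.959 and 12.1 ± 2.02 CPM (adjusted p = 0.0142), and was not called without sensitive replicate 1 (0.0610) or resistant replicate 2 (0.0796).

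Of the 16 genes called, the calls of MAGEA4, MAGEB2, GAGE2A, GAGE12J and SSX3 as higher and of SAGE1 as lower held in each of the 18 alternative analyses. Transcript windows of 100 bases were shared with another gene over more than 50% of the length for 15 of the 50 genes, and for 3 of the 16 called (GAGE2A, GAGE12J and CT45A1), while 12 of the 16 shared none. With 3 libraries a group, the smallest p of an exact two-sided permutation test is 0.1, so single genes were tested only in the fit across all genes.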

How the data were processed

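RNA was measured in 3 azacitidine-sensitive and 3 azacitidine-resistant K562 libraries. Per the labels' protocols, DNase-treated total RNA was depleted of ribosomal RNA, made into stranded libraries and sequenced in pairs. The authors deposited raw counts per Ensembl gene. The submitters' processing notes name Subread 2.0.3 with featureCounts, HISAT2 2.2.1 and Trimmomatic 0.39, and the build GRCh38. What was not given in the sources used here is the annotation release, the strand setting, the treatment of multiply mapped reads, and whether reads or fragments were counted. Rows of near-identical, overlapping and antisense genes are therefore uncertain.

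Symbols were found for 61369 IDs. Positions, exon lengths and transcripts are from GENCODE 29, which may not be the authors' release. Genes were filtered with filterByExpr (minimum count 10), scaled with TMM factors and tested with edgeR 4.0.16 (R 4.3.3, robust quasi-likelihood, two-sided) over 20891 genes. Every adjusted p is from this fit, Benjamini-Hochberg over all genes tested, unless another tool, another setting or a left-out library is named. Those come from refits, each adjusted over its own genes tested: 21615 to 22486 with 1 library left out and 39268 with no filter. The SE is the log2 fold change divided by the square root of F, an approximation. CPM use TMM-scaled totals and are mean ± SD over 3 libraries or single values. The steps were tested on simulated data.

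The genes and lists were chosen with earlier results of these data known. Of 224 list entries, 210 matched, and 1 regulator is not reported here. Every one of the 50 genes was accounted for. From other lists, called genes were named, up to 6 per list by smallest adjusted p, plus DNMT1, UHRF1, CTCFL and TRIM28. Neighbours were named only if nearest to a called gene, with the 50 genes, family copies and other X-linked testis genes passed over. GAGE10, CT45A10, MAGEA3-DT, MAGEA6-DT, BX119904.2, EEF1GP5, PLAC1 and COL1A1 fall outside this rule and were chosen after their values were seen. Alternatives used DESeq2 1.42.0 (size factors or Wald test), limma-voom (limma 3.58.1), upper quartile factors, library totals, no filter or 50 counts in 3 libraries, no mitochondrial genes, a replicate block, libraries left out, glmTreat against 1.5-fold, and an adjusted p below 0.01.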

Additional observations from a re-analysis of the deposited data

How the results depend on the processing

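Of the 13 higher and 3 lower calls among the 50 genes, 5 and 1 held in all 18 alternatives. Of the 30 tested genes, 0 reversed a called direction. The higher count was 7 with at least 50 counts in 3 libraries and ranged from 9 to 13 with each library left out. The lower count ranged from 2 to 5 with each library left out, 5 being without resistant replicate 3, and was 6 without both libraries numbered 3. The 4 lower family copies were 2 with at least 50 counts in 3 libraries. Of X chromosome genes, 71 were higher and 132 lower. Leaving out each library gave 39 to 103 higher and 84 to 170 lower, leaving out both libraries numbered 3 gave 138 and 213, an adjusted p below 0.01 gave 38 and 82, and glmTreat gave 40 and 76. Library totals moved the median of all genes from 0.03 to 0.20. Summed counts over copies were described only, with no fit. Whether replicate numbers pair the libraries was not settled, and the main fit left the numbers out. Correlations of the deviations of same-numbered libraries were 0.20, 0.085 and 0.30, and 4 of 6 libraries correlated best with their own number. A replicate block gave 86 higher and 169 lower X chromosome genes. With a replicate block 13 of the 50 genes were higher and 4 lower, CTAG2 being added (log2 fold change -0.51, adjusted p = 0.0215), and outside the 50 CT45A10 was called lower. Depth limits the 20 genes not tested, each below the filter on low counts.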

Other observations

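Of 38 other X-linked genes with testis-restricted expression, 20 had 0 counts and 9 were tested, of which 0 were higher and 5 lower in edgeR, beside 10.9% higher and 20.3% lower of all X chromosome genes tested. At an unadjusted p below 0.05, and with DESeq2, 0 were higher and 6 lower. PLAC1, a placental gene, was at 2.42 ± 0.785 and 3.86 ± 0.518 CPM, with every resistant library above every sensitive one, and was not called (log2 fold change 0.68 ± 0.31, adjusted p = 0.144). RHOXF2B, a germ cell homeobox gene, was at 83.1, 84.4 and 93.8 CPM in sensitive libraries and 28.5, 41.0 and 50.9 CPM in resistant libraries (log2 fold change -1.12 ± 0.21, adjusted p = 0.00384). Its near-copy RHOXF2 was at 7.10 ± 1.63 and 3.45 ± 0.448 CPM (adjusted p = 0.0158), and was not called without sensitive replicate 2 (0.0510) or resistant replicate 1 (0.0554) or 2 (0.0599). VCX was at 2.49, 3.36 and 0.508 CPM and then 0.276, 0.251 and 0.105 CPM (log2 fold change -3.31 ± 0.71, adjusted p = 0.00804, and 0.0546 with limma-voom). VCX passed the filter on low counts through the sensitive libraries alone, so a difference was a condition of its being tested. DDX53 (log2 fold change -0.82, adjusted p = 0.0318) and FAM133A (-1.27, adjusted p = 0.0321) were also lower. DDX53 was not called without sensitive replicate 1 (0.0581), 2 (0.0591) or 3 (0.0862) or resistant replicate 1 (0.101) or 2 (0.0971), nor FAM133A without sensitive replicate 1 (0.157) or 2 (0.0745) or resistant replicate 1 (0.0575) or 2 (0.136).

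Of 7 tested MAGE genes that are not germ cell restricted, 2 were higher, beside 9.83% of all genes tested. NDN (necdin), a growth suppressor gene that is imprinted and lies on an autosome, was at 0.342, 0.690 and 0.535 CPM in sensitive libraries and 2.82, 3.69 and 2.99 CPM in resistant libraries (log2 fold change 2.60 ± 0.37, adjusted p = 8.99e-04). MAGEE1 had 4, 0 and 0 counts and then 27, 16 and 24, a ratio of 16.4 (exact 95% binomial interval 6.11 to 61.9), adjusted p = 0.0124. Its log2 fold change of 3.95 was 7.45 without sensitive replicate 1, where the sensitive group has 0 counts, and it was not called without sensitive replicate 2 (adjusted p = 0.0510). MAGEE1 passed the filter on low counts through the resistant libraries alone, so a difference was a condition of its being tested.

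Among 11 markers of other cell types, of which 9 were tested, COL1A2, a collagen gene of mesenchymal cells, was higher, at 0.323 ± 0.276 and 5.50 ± 1.32 CPM (adjusted p = 0.00104). COL1A2 passed the filter on low counts through the resistant libraries alone, so a difference was a condition of its being tested. COL1A1, the partner chain of COL1A2 in type I collagen, was at 1.10 ± 0.736 and 0.455 ± 0.277 CPM and was not called (log2 fold change -1.27 ± 0.60, adjusted p = 0.161). Lower were KRT19, CD3E and PECAM1. Over all genes tested, 9.83% were higher and 13.1% lower. The part of these markers in the changes of the cancer-testis genes was not tested.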
